A study of Mus musculus with 24 samples.

Results

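Chemokines and their receptors were described in the proximal colon of interleukin (IL)-10 knockout mice that had received a high or a low vitamin D3 diet before and after weaning. A gene was included when its probe symbol began with Ccl, Cxcl, Cx3cl, Xcl, Ccr, Cxcr, Cx3cr or Xcr followed by a digit. By this rule, 54 of 19057 genes with a single symbol were included, of which 36 encoded ligands and 18 encoded receptors. They were measured by 79 of 45281 probes, and each gene was read from its probe with the highest mean value. All mice were 129/SvEv males that carried the IL-10 deletion and were 3 months old, with 6 mice in each group and no wild type animals. The HH group had 5000 IU vitamin D3/kg diet through the mother during pregnancy and lactation and the same diet from weaning, and the LL group had 25 IU/kg throughout. The HL group changed from 5000 to 25 IU/kg at weaning, and the LH group changed from 25 to 5000 IU/kg. RNA came from part of the proximal colon, so epithelium, muscle and leukocytes were measured together, and fewer cells of a type could not be told apart from less RNA per cell. Each mouse is named by its group and its mother's label.

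Chemokines are small secreted proteins that guide leukocytes along concentration gradients by binding G protein-coupled receptors on the migrating cells. Their names follow the spacing of conserved cysteines (CC, CXC, CX3C and XC), and many ligands bind more than a single receptor. In the gut, some are made constantly by epithelium and stroma and place lymphocytes in the mucosa and in lymphoid follicles, whereas others are induced by microbial products or interferon and recruit neutrophils, monocytes and T cells. IL-10 normally restrains the induced members in macrophages, and mice that lack it develop colitis when exposed to gut bacteria.

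The arrays detected between 21.2% and 37.0% of probes at a detection score above 0.99, and mean raw intensity ranged from 245.3 to 636.8. Shares detected overlapped between the mice on the high (mean 32.5%, SD 4.08, n = 12) and the low post-weaning diet (mean 31.4%, SD 5.19, n = 12). The probe for Il10 was detected on 20 of 24 arrays (log2 intensity 7.15 to 8.09). Whether it lies outside the deleted part was not known, so it does not check the genotype. Epithelial markers were present in every group (6 of 7 detected on at least 20 arrays). Markers of exocrine pancreas, which is not part of the colon, reached a mean log2 value of 10.8 in HL 8C and 9.75 in LL 13A against a mean of 7.79 over all mice. Their part in any chemokine value was not tested.

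Ligands were detected more often than receptors in this tissue. On at least 20 of 24 arrays, 22 ligands but only 3 receptors (Cxcr4, Ccr6 and Cx3cr1) passed the detection score. Cxcr5 (18 arrays), Cxcr6 (15), Cxcr3 (12), Ccr7 (11) and Ccr10 (1) were detected on some arrays. The brightest probe was detected on none for the other 10 receptors, namely Ccr1, Ccr1l1, Ccr2, Ccr3, Ccr4, Ccr8, Ccr9, Cxcr1, Cxcr2 and Xcr1. A second probe of Cxcr2 was detected on 1 array, so 16 genes in place of 17 were undetected when every probe of a gene was counted. Among these, Cxcr1 and Cxcr2 are the receptors of neutrophils for CXC ligands, and Ccr2 is the receptor by which monocytes leave the marrow. The ligands detected on no array were Ccl1, Ccl22, Ccl24, Ccl26, Cxcl15, Cxcl17 and Cxcl3. Of the remaining ligands, Ccl19 (19 arrays), Cxcl2 (17), Ccl3 (16), Ccl20 (13), Ccl2 (11), Ccl27a (6) and Cxcl11 (1) were detected in only some of the mice. A gene that is not detected has a level that this array cannot separate from its background, which is no evidence that the tissue lacks it.

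**Figure D1:**
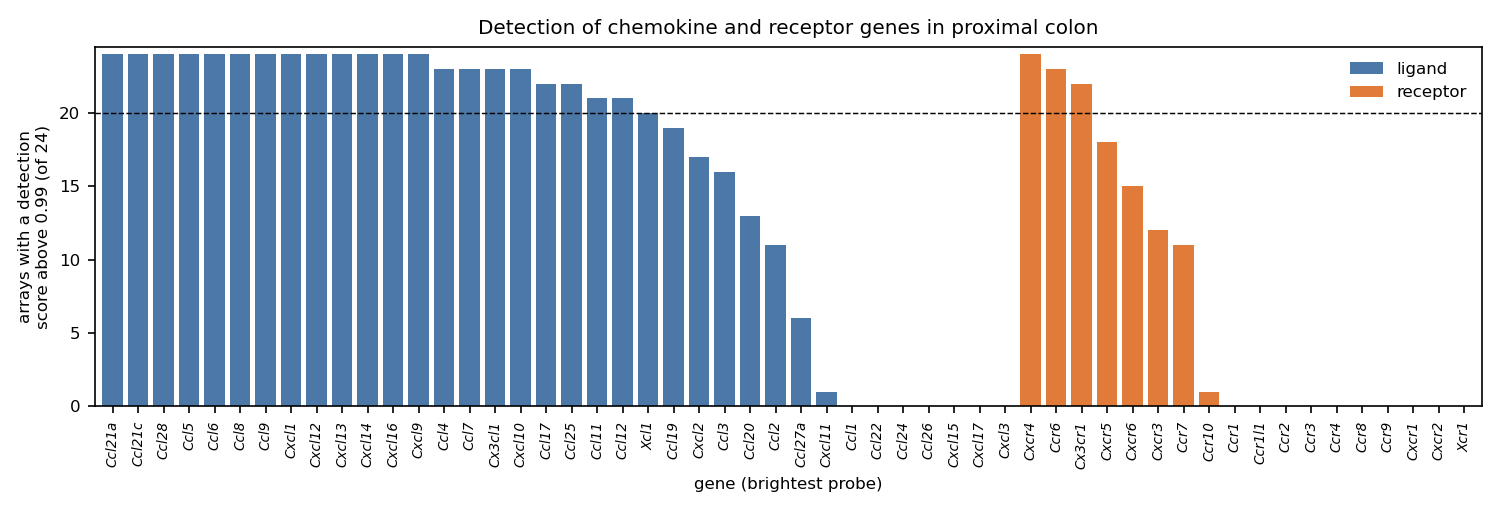
Number of arrays, of 24, on which the brightest probe of each of 54 genes had a detection score above 0.99, for ligands (blue) and receptors (orange). The dashed line stands at 20 arrays, which 22 ligands and 3 receptors reached, and 17 genes have no bar because they were detected on 0 arrays.

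The genes lie in clusters, with 14 on chromosome 11 (12 of them ligands, among them Ccl2 to Ccl9 and Ccl12), 10 ligands on chromosome 5 (among them Cxcl1, Cxcl2, Cxcl9, Cxcl10 and Cxcl13) and 11 receptors on chromosome 9. Neighbouring paralogs are similar in sequence, and Ccl21a and Ccl21c in particular are near-identical, so a probe for either may also bind RNA of the other.

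Single mice differed widely in these genes. Over the 25 members detected on at least 20 arrays, the median SD across the 24 mice was 0.36 on the log2 scale, compared with 0.26 for the 11679 probes that were detected as often. The 6 largest SDs belonged to Ccl5 (0.69), Ccl4 (0.68), Cxcl9 (0.66), Cxcl1 (0.64), Cxcl2 (0.59) and Cxcl16 (0.55). Cxcl1 spanned 8.08-fold between HL 10B (log2 intensity 7.59) and LH 6A (10.60), and Ccl4 spanned 6.38-fold between HH 10B (7.23) and LL 3B (9.90). Cxcl9 spanned 5.70-fold, from 9.82 in HH 10B to 12.33 in HL 8. At the other end, the homing ligand Ccl25 had an SD of 0.13 and the receptor Cx3cr1 an SD of 0.22.

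The same few mice were low in many members at once. Of the 25 members, 19 lay below their mean over all mice in each of HH 10B, HL 10B, LL 6 and HL 8, with median deviations of -0.33, -0.35, -0.39 and -0.24. LL 6 was the lowest of all mice for 6 members, HH 10B for 4 and HL 10B for 3. In HH 10B, HL 10B and LL 6, the mean of the macrophage and monocyte markers also lay below its average over 24 mice, by -0.52, -0.64 and -0.68. Neutrophil markers deviated by -0.73, -1.43 and -0.58 in the same order, and T cell markers by -0.29, -0.34 and -0.49. Smooth muscle markers were above average in these mice, by 0.53, 0.74 and 0.73, and so were goblet cell markers, by 0.44, 0.44 and 0.39. HL 8 did not share these marker values, with deviations of 0.27 for neutrophil, 0.04 for macrophage and monocyte, -0.36 for T cell, -0.05 for smooth muscle and -0.15 for goblet cell markers. The part of tissue composition in these chemokine values was not tested. HH 10B and HL 10B carried the same mother's label.

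High values were spread over other mice. LH 6A had only 4 of 25 members below their mean and was the highest of all mice for 7 of them, with a median deviation of 0.30. HL 10 (0.31) and HH 5 (0.33) had similar median deviations, and HL 10 was highest for 3 members. LH 6A was also high in T cell (0.39) and neutrophil markers (0.42) and low in epithelial markers (-0.72), and only 23.5% of its probes were detected. LL 3B, with 21.9% of probes detected, had 8 of 25 members below their mean and a median deviation of 0.22.

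**Figure D2:**
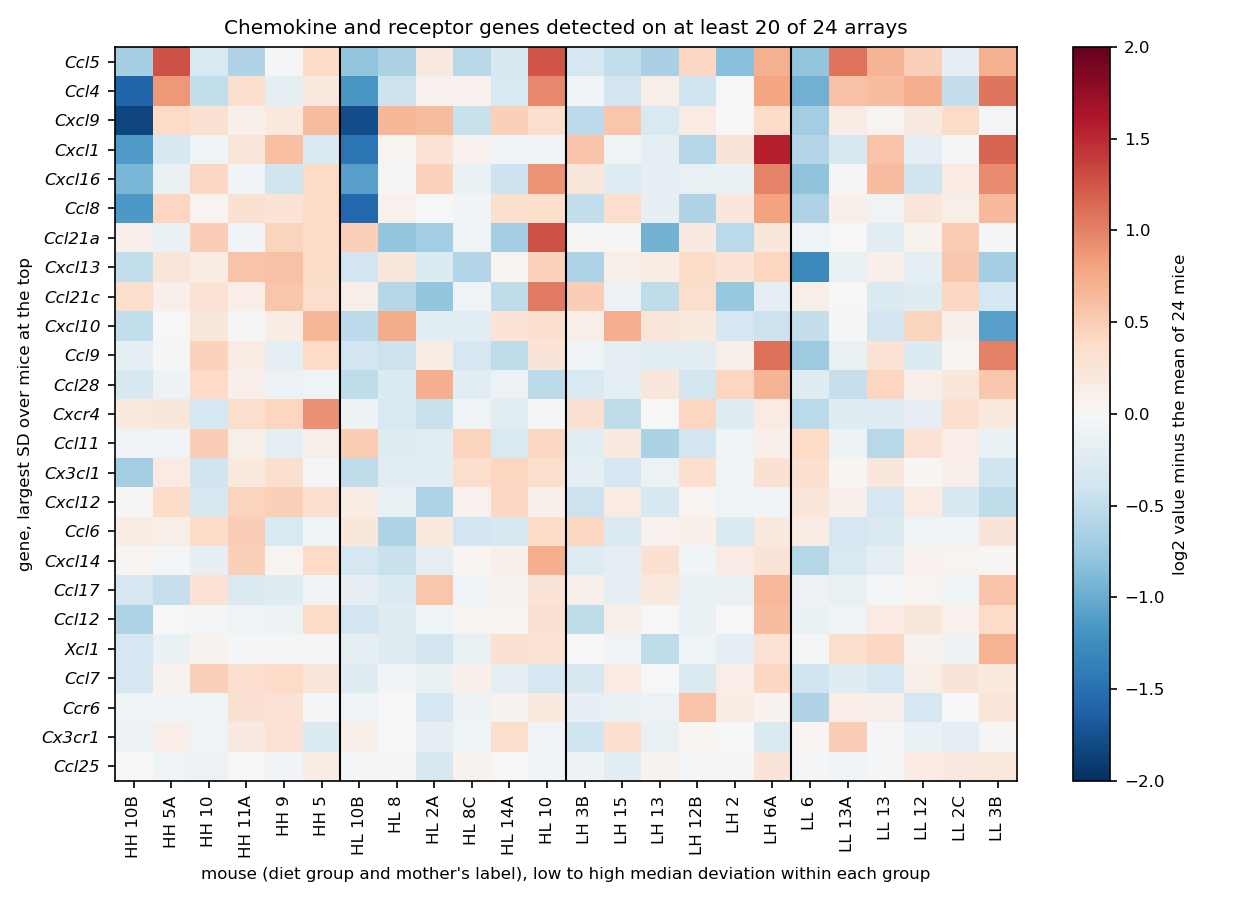
Log2 values of the 25 members detected on at least 20 arrays, centred on each gene's mean over 24 mice, with a row for each gene and a column for each mouse. The columns of HH 10B, HL 10B and LL 6 are mostly blue (19 of 25 members below the mean in each), and red is densest in LH 6A, HL 10 and LL 3B.

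Cxcl1 and Cxcl2 attract neutrophils through Cxcr2 and are made by epithelium and macrophages soon after bacterial contact. The lowest, median and highest log2 values of Cxcl1 were 7.91, 8.85 and 9.64 in the HH mice and 7.59, 9.04 and 9.31 in the HL mice. In the LH mice they were 8.47, 9.14 and 10.60, and in the LL mice 8.46, 8.93 and 10.21. The 4 groups overlapped over most of their range. Cxcl1 differed by 0.09 (SE 0.25) between the high and low post-weaning diet and by -0.36 (SE 0.25) between the high and low pre-weaning diet, on the log2 scale. Cxcl2 had values of 6.94, 7.80 and 9.09 in the HH mice, 6.94, 7.23 and 7.85 in the HL mice, 7.23, 8.14 and 8.38 in the LH mice and 6.92, 7.73 and 8.72 in the LL mice. Its highest values were in HH 11A and LL 3B, and the HL group reached only 7.85, although the lowest HH and LL mice were as low. The log2 difference of Cxcl2 was 0.40 (SE 0.22, adjusted p = 0.944) for the post-weaning diet, and 8 of the 12 high-diet mice exceeded the low-diet mean. A dimmer Cxcl2 probe (11 arrays detected) gave 0.12. Neutrophil markers differed by 0.22 between the same diets (4 of 5 genes above 0), and their part in the Cxcl2 values was not tested.

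Cxcl9 and Cxcl10 are induced by interferon-gamma and bring T cells that carry Cxcr3 into inflamed tissue. Cxcl9 had lowest, median and highest values of 9.82, 11.91 and 12.29 in the HH mice, 9.89, 12.08 and 12.33 in the HL mice, 11.14, 11.73 and 12.21 in the LH mice and 10.97, 11.76 and 12.04 in the LL mice. The lowest mouse of HH and HL stood far below its group, whereas the group means differed little (11.62 to 11.70). Between diets Cxcl9 differed by 0.01 (SE 0.27) after weaning and -0.05 (SE 0.27) before weaning. The pre-weaning sign depended on the mice that were low in many members. Over all mice, 3 of the 4 interferon-induced members were above 0 before weaning (median 0.05), with Cxcl9 below. Without HH 10B, HL 10B and LL 6, all 4 were above 0 (median 0.18). After weaning, 2 of 4 were above 0 without these mice (median -0.0027). Cxcl10 ranged from 7.20 (LL 3B) to 9.05 (HL 8), and its group means were 8.38 in the HH mice, 8.36 in the HL mice, 8.39 in the LH mice and 8.06 in the LL mice, each with an SD between 0.38 and 0.54 (n = 6). The 2 probes of Cxcl10 differed by 0.18 and -0.0012 between post-weaning diets. Cxcr3 had group means between 7.30 and 7.46.

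The inflammatory CC ligands act on monocytes, macrophages, eosinophils and activated T cells. Ccl5 attracts T cells and monocytes, and its lowest, median and highest values were 9.22, 9.71 and 11.16 in the HH mice, 9.10, 9.45 and 11.13 in the HL mice, 9.05, 9.47 and 10.60 in the LH mice and 9.09, 10.46 and 10.97 in the LL mice. The lowest mouse of each group lay near 9, and above 10.5 there was 1 mouse each in HH, HL and LH and 3 in LL, so that the groups overlapped. The LL group had the highest mean (10.22, SD 0.69, n = 6). Ccl5 differed by -0.19 (SE 0.27) after weaning and by 0.68 (SE 0.54, adjusted p = 0.9999) for the interaction of both diets. Ccl4, a macrophage inflammatory protein, had values of 7.23, 8.84 and 9.70 in the HH mice, 7.67, 8.72 and 9.79 in the HL mice, 8.43, 8.80 and 9.63 in the LH mice and 7.87, 9.44 and 9.90 in the LL mice. Its log2 difference was -0.13 (SE 0.27) after weaning and -0.27 (SE 0.27) before weaning, neither larger than the spread between mice.

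Ccl8 and Ccl7 are monocyte chemoattractants. In Ccl8, HH 10B (9.83) and HL 10B (9.40) lay well below the other 5 mice of their groups, which ranged from 11.03 to 11.41 and from 10.92 to 11.33. Ccl7 differed by 0.21 (SE 0.10, unadjusted p = 0.0489, adjusted p = 0.944) between post-weaning diets, and its second probe by 0.11. Ccl9 and Ccl6, related ligands of myeloid cells in mice, had group means of 10.68 to 10.98 and 9.08 to 9.29. The highest Ccl9 values were in LH 6A (11.98) and LL 3B (11.90). Ccl11, which attracts eosinophils, ranged from 7.34 (LH 13) to 8.48 (HL 10B), and Ccl12 had group means between 7.73 and 7.92. The Ccl11 log2 difference was -0.11 after weaning and 0.17 before weaning. Of the 16 genes in this group, 8 were detected on at least 20 arrays, 12 were tested for the post-weaning diet and 7 of these had a difference above 0.

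The lymphoid tissue group contains the ligands that organize B and T cell areas of follicles and their receptors. Cxcl13 draws B cells with Cxcr5 into follicles, and its lowest, median and highest values were 10.05, 10.85 and 11.13 in the HH mice, 9.96, 10.43 and 11.01 in the HL mice, 9.92, 10.75 and 10.98 in the LH mice and 9.25, 10.39 and 11.09 in the LL mice. Both groups on the high post-weaning diet had higher medians, but each held a mouse near 10 and the ranges overlapped. Cxcl13 differed by 0.36 (SE 0.18, unadjusted p = 0.0595, adjusted p = 0.944). Ccl19, which guides T cells and dendritic cells with Ccr7, had values of 7.44, 7.97 and 8.34 in the HH mice, 7.36, 7.47 and 8.21 in the HL mice, 7.52, 7.68 and 8.15 in the LH mice and 7.27, 7.50 and 8.03 in the LL mice. It differed by 0.25 (SE 0.12, unadjusted p = 0.0400, adjusted p = 0.944), and 10 of the 12 high-diet mice exceeded the low-diet mean.

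Cxcr4, the receptor for the stromal ligand Cxcl12 on most leukocytes, had values of 8.15, 8.79 and 9.41 in the HH mice, 8.04, 8.33 and 8.46 in the HL mice, 7.99, 8.57 and 8.93 in the LH mice and 7.95, 8.30 and 8.81 in the LL mice. In HH, 5 of 6 mice lay above every HL mouse, whereas LH and LL overlapped widely. The post-weaning log2 difference was 0.32 (SE 0.12, unadjusted p = 0.0189, adjusted p = 0.944). Cxcl12 had group means of 9.24 in the HH mice, 9.02 in the HL mice, 8.91 in the LH mice and 8.91 in the LL mice. Its pre-weaning difference of 0.22 (SE 0.12) had the smallest p of all members in that comparison (limma, unadjusted p = 0.0774, adjusted p = 0.9995). Its 2 other probes detected on at least 20 arrays differed by 0.16 and 0.12. Ccl21a and Ccl21c, further ligands of Ccr7, ranged from 9.14 to 11.36 and from 8.53 to 10.34, with HL 10 highest in both.

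All 8 lymphoid tissue members tested had a post-weaning difference above 0, against 50.8% of all probes. The differences lay between 0.04 (Ccl21a) and 0.36 (Cxcl13), with a median of 0.18, where the median of all 31298 probes was 0.0014. The 3 neutrophil-attracting members tested (Cxcl1, Cxcl2 and Cxcr2) were also all above 0, but only 2 of 3 were without HH 10B, HL 10B and LL 6. Of these, Cxcr2 (0.05) was detected on 0 arrays. Ccl21a and Ccl21c, whose probes may bind RNA of each other, count separately among the 8 lymphoid tissue members. On the same arrays, these remained above 0 in 8 of 8 with another background correction, with median scaling and without HH 10B, HL 10B and LL 6 (medians 0.32, 0.27 and 0.20). With median scaling, 32 of all 43 members tested were above 0, and the median of all probes was 0.019. Without HH 10B, HL 10B and LL 6, 27 of the 43 were above 0. The share of all probes above 0 was not counted in these 2 runs. None of the 8 passed the adjusted test. Within the 4 mother's labels shared by a mouse on each post-weaning diet, this direction was not seen, with 14 of 32 differences of these 8 genes above 0. For the pre-weaning diet, 7 of the 8 were also above 0, against 51.8% of all probes, with a median of 0.12. Between post-weaning diets, B cell and T cell marker means differed by 0.07 and 0.10, macrophage markers by 0.16, neutrophil markers by 0.22, smooth muscle markers by -0.18 and exocrine pancreas markers by -0.57. Only 1 of the 4 B cell markers on the array was detected on at least 20 arrays. The exocrine pancreas mean was highest in HL 8C (10.8) and LL 13A (9.75), both on the low post-weaning diet. The part of lymphoid tissue in each piece of colon was not tested.

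**Figure D3:**
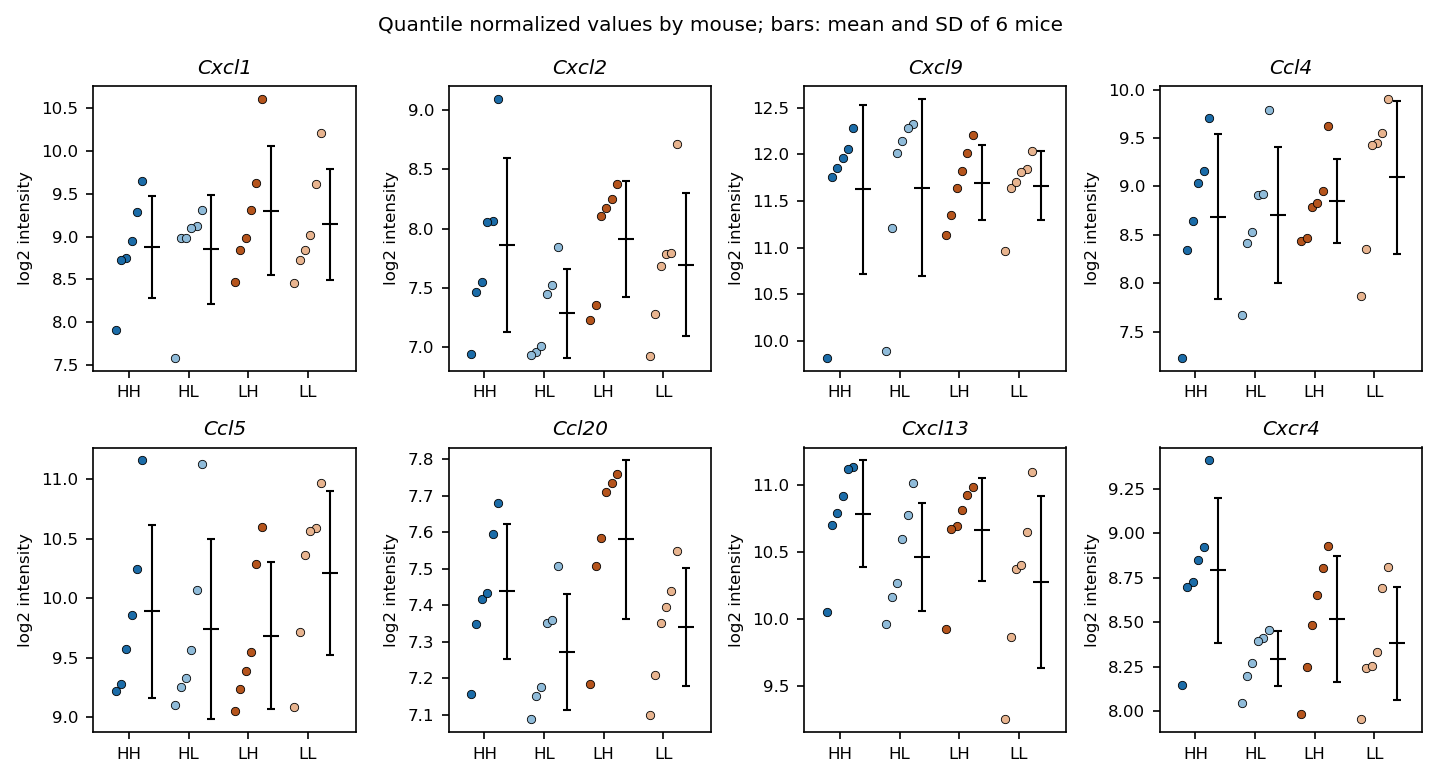
Log2 quantile normalized intensity of 8 genes in each of 24 mice, by diet group, with the mean and SD of 6 mice as bars. Vertical axes differ between genes and do not start at 0. Groups overlap for every gene shown, and the lowest points of Cxcl9 in HH (9.82) and HL (9.89) stand apart from the rest.

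Among the ligands of epithelium and mucosal homing, Ccl20 is made by the epithelium over lymphoid follicles and attracts cells with Ccr6. It had the smallest p of all members for the post-weaning diet. The lowest, median and highest values were 7.16, 7.42 and 7.68 in the HH mice, 7.09, 7.26 and 7.51 in the HL mice, 7.18, 7.65 and 7.76 in the LH mice and 7.10, 7.37 and 7.55 in the LL mice. Mice on the high diet tended to lie higher in both pre-weaning groups, but the ranges overlapped. The log2 difference was 0.20 (SE 0.07, 95% confidence interval 0.05 to 0.35, unadjusted p = 0.0101, adjusted p = 0.944). Ccl20 was detected on 13 of 24 arrays, and its other probe, detected on none, differed by 0.02. The difference was 0.58 after normexp background correction and 0.11 for the mean of both probes. Ccr6 differed by 0.11 (SE 0.10), and its group means lay between 8.10 and 8.24.

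Ccl28, which draws IgA plasma cells to mucosa, ranged from 8.83 (HL 10) to 10.08 (HL 2A), and its group means lay between 9.20 and 9.45. Cxcl14, an epithelial ligand, and Cxcl16, a membrane-bound ligand of Cxcr6, had post-weaning differences of 0.17 and -0.03. Cxcl16 varied widely between mice, from 9.00 (HL 10B) to 11.09 (LH 6A). Its receptor Cxcr6 differed by 0.21 (SE 0.10, unadjusted p = 0.0444, adjusted p = 0.944). Cx3cl1, a tethered ligand, and its receptor Cx3cr1, which marks resident gut macrophages, differed by -0.08 and -0.06. The thymus and small intestine ligand Ccl25 had values between 7.22 and 7.79 and a pre-weaning difference of -0.08, which was 0.02 with median scaling. Xcl1, a T and natural killer cell ligand, had group means of 7.49 in LH and 7.82 in LL and an interaction of 0.32 (SE 0.20). Ccl17, which attracts T cells with Ccr4, had group means between 7.52 and 7.78.

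Across all members, no gene passed an adjusted p under 0.05 for the post-weaning diet (0 of 43 tested), the pre-weaning diet (0 of 41), the interaction (0 of 50) or any difference among the 4 groups (0 of 50), by limma with Benjamini-Hochberg adjustment over all probes. The same was true of all probes tested, of which 0% passed in each comparison. At an unadjusted p under 0.05, 6 of 43 members (14%) were past the threshold for the post-weaning diet, compared with 4.22% of all 31298 probes. All 6 were higher on the high diet (Ccl20, Ccr1l1, Cxcr4, Ccl19, Cxcr6 and Ccl7), a direction in which 2.1% of all probes lay. Ccr1l1 was detected on 0 arrays and differed by only 0.08, and it did not pass the filter for the pre-weaning diet. Leaving out each mouse in turn gave counts from 3 to 9, with 3 without HH 11A, HL 2A, HL 10B or LL 6. The count was also 3 when arrays were scaled by their median in place of quantile normalization.

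Of the 43 members, 29 had a post-weaning difference above 0 (67.4%, against 50.8% of all probes), and the median was 0.06. Among the 29 were Ccr1l1 (0.08), Ccr8 (0.06) and Xcr1 (0.05), detected on 0 arrays. They passed the filter for the post-weaning diet but not for the pre-weaning diet. A probe near background can pass this filter through the diet in which it is higher, which can add to such a count. In the direction of a lower value, 0 members and 2.13% of all probes had an unadjusted p under 0.05. For the pre-weaning diet, 0 of 41 members had an unadjusted p under 0.05 (2.72% of all probes, with 1.48% higher and 1.24% lower), and 20 were above and 21 below 0 with a median of -0.01. Of all probes, 51.8% were above 0. With median scaling this split was 32 above and 9 below, with a median of 0.08. The median of all probes also moved, from 0.0027 to 0.034, and their share above 0 was not counted under that scaling. The pre-weaning split of the members thus depended on the scaling, which shifted the probes as a whole too. For the interaction, 0 of 50 members had an unadjusted p under 0.05 (2.94% of all probes, with 1.41% higher and 1.53% lower). Of the members 27 of 50 were above 0, compared with 49.6% of all probes, with a median of 0.04. For any difference among groups there were 3 of 50 (Ccl20, Ccr1l1 and Ccr1; 2.47% of all probes), and 1 with normexp background correction, with median scaling or with the mean of a gene's probes. Ccr1l1 and Ccr1 were detected on 0 arrays. Ccr1 was tested in neither diet comparison and was kept here because a probe needed to pass the filter in only a single group. Its group means lay between 6.93 and 7.07, with HH highest. Ccl27a, a skin-type epithelial ligand, had the smallest p for the interaction (0.28, SE 0.16), but its other probe differed by -0.26.

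The precision set a limit on what could be seen. The 95% confidence interval of a member's post-weaning difference had a median half-width of 0.24 on the log2 scale, and the widest was 0.57. For all probes tested the median half-width was 0.12. For the interaction, the median half-width over members was 0.43. These widths varied between genes, and a p that missed the threshold does not show that the groups were alike.

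**Figure D4:**
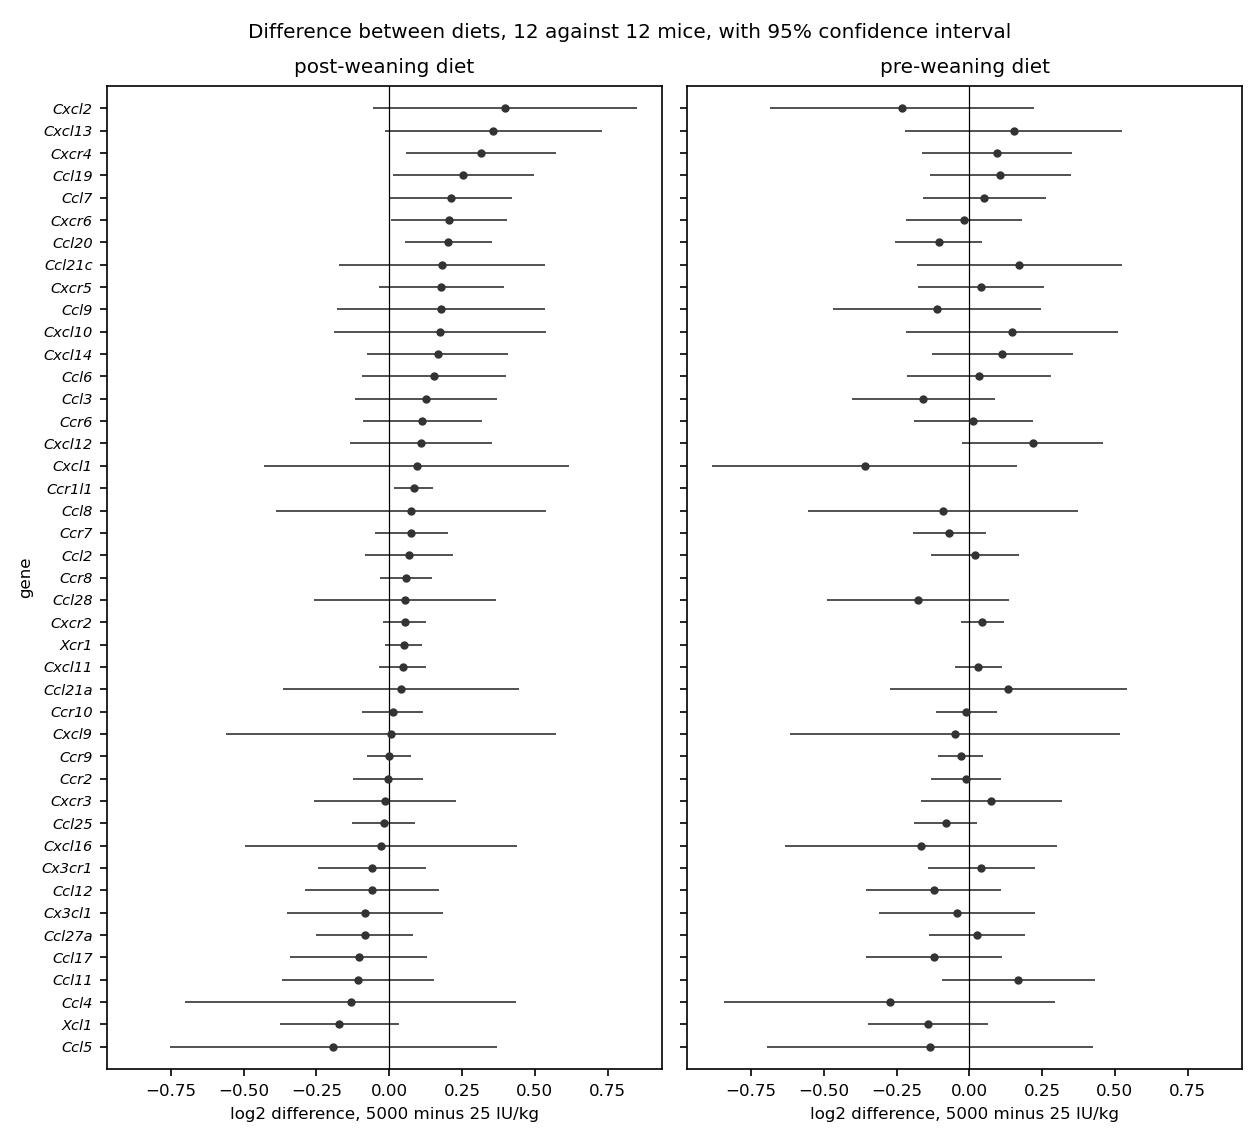
Log2 difference between 5000 and 25 IU vitamin D3/kg diet with its 95% confidence interval, for the 43 members tested for the post-weaning diet (left) and the same genes for the pre-weaning diet (right), with 12 mice on each diet. Cxcl2 (0.40), Cxcl13 (0.36) and Cxcr4 (0.32) stand at the top of the left panel. Most intervals in the left panel and all intervals in the right panel include 0. Genes without a point in the right panel were not tested there.

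The 4 mother's labels that were shared by a mouse on each post-weaning diet allowed 4 comparisons within a label. Ccl4 was lower on the high diet in all 4, with 8.34 in HH 10 against 9.79 in HL 10, 7.23 in HH 10B against 7.67 in HL 10B, 8.95 in LH 13 against 9.45 in LL 13, and 8.78 in LH 3B against 9.90 in LL 3B. Over all 24 mice its difference was -0.13, and its other probe, detected on 21 arrays, differed by -0.0004. Ccl20 was higher on the high diet in 4 of 4 comparisons, by 0.06 to 0.31. It was named for its smallest p over all 24 mice, which include these, so the count is not separate support. Its values in HH 10B (7.16) and HL 10B (7.09) lay near the median of undetected values (7.09). Of the 54 members, 2 were higher on the high diet in all 4 comparisons (Ccl20 and Ccr8) and 9 in none. Ccr8 and some of the 9 (Ccl22, Cxcl17 and Cxcr1) were detected on 0 arrays, so their values cannot be separated from background. Of all 45281 probes, 7.56% were higher in all 4 and 7.7% in none, compared with 3.7% and 16.7% of the members. No test was made on these 4 comparisons.

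The remaining question was whether ligands moved with their receptors, or with each other, from mouse to mouse. Over 24 mice, 19 pairs of genes were correlated, 13 of a ligand with a receptor and 6 of 2 ligands, and p-values came from a two-sided permutation test adjusted over the 19 pairs. By Pearson's r, 5 of 6 ligand pairs and 2 of 13 ligand-receptor pairs had an adjusted p under 0.05, all with r above 0. The median r was 0.66 for ligand pairs and 0.20 for ligand-receptor pairs. All points share the array they came from and its normalization. The permutations also treated the mice as independent, although 4 mother's labels were shared by 2 mice each. With 1 mouse per label (n = 20), 6 of the 19 pairs passed. With median scaling in place of quantile normalization 14 of the 19 pairs passed, among them Cxcl12 with Cxcr4 (r = 0.76) and Ccl2 with Ccl7 (r = 0.69).

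Cxcl2 and Ccl3, both induced early in macrophages and neutrophils, were correlated with r = 0.81 (rho = 0.81, permutation p = 1e-05 for each, the smallest 100000 permutations can give, and adjusted p = 9.5e-05). HH 11A, LL 3B and LH 3B were high in both, and LL 6, HL 10B and HH 10B were low in both. Without the 2 mice farthest from the median of Cxcl2, r was 0.74 (permutation p = 9e-05). Ccl19 and Cxcl13 were correlated with r = 0.79 (rho = 0.87, permutation p = 1e-05 for each, adjusted p = 9.5e-05), and r was 0.77 without the 2 farthest mice (permutation p = 5e-05). Within groups, as deviations from the 4 group means, r was 0.80 for Cxcl2 with Ccl3 and 0.76 for Ccl19 with Cxcl13. Without HH 10B, HL 10B and LL 6 it was 0.74 and 0.78. These were the only pairs of the 19 that kept an adjusted p under 0.05 without these 3 mice.

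Cxcl1 and Cxcl2 (r = 0.66, rho = 0.67, adjusted permutation p = 0.00241 and 0.00204) and Ccl3 and Ccl4 (r = 0.65, rho = 0.70, adjusted permutation p = 0.00285 and 0.00127) were also correlated. Without HH 10B, HL 10B and LL 6, r was 0.53 for Cxcl1 with Cxcl2 and 0.48 for Ccl3 with Ccl4 (adjusted permutation p = 0.0761 and 0.0929). With 1 mouse per mother's label, Ccl3 with Ccl4 had r = 0.51 and lost its call (adjusted permutation p = 0.0573). Cxcl9 and Cxcl10 had r = 0.54 (rho = 0.65, adjusted permutation p = 0.0225 and 0.00236). Without the 2 mice farthest from the median of Cxcl9, r was 0.47 (adjusted permutation p = 0.0842), with an unadjusted permutation p of 0.0266. With normexp background correction, r was 0.49 for Cxcl9 with Cxcl10 (adjusted permutation p = 0.0581). Ccl2 and Ccl7, neighbouring monocyte ligands on chromosome 11, had r = 0.13 (permutation p = 0.560), with Ccl2 detected on only 11 arrays.

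Of the ligand-receptor pairs, Cxcl13 and Cxcr5 had r = 0.58 (rho = 0.62, adjusted permutation p = 0.0112 and 0.00516), and Ccl20 and Ccr6 had r = 0.52 (rho = 0.43, adjusted permutation p = 0.0238 and 0.0880). Without the 2 mice farthest from the median of the ligand, r was 0.38 and 0.41 (adjusted permutation p = 0.178 and 0.157), so neither kept its call. Cxcl9 with Cxcr3 had r = 0.39 and Ccl25 with Ccr9 r = 0.40 (adjusted permutation p = 0.131 and 0.128). Cxcl12 with Cxcr4, both detected on all 24 arrays, had r = 0.23 (adjusted permutation p = 0.499). The remaining pairs lay between -0.14 (Ccl2 with Ccr2) and 0.30 (Ccl19 with Ccr7). The probes used for Cxcr2, Ccr2, Ccr9 and Xcr1 were detected on 0 arrays, and the values there cannot be separated from background.

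**Figure D5:**
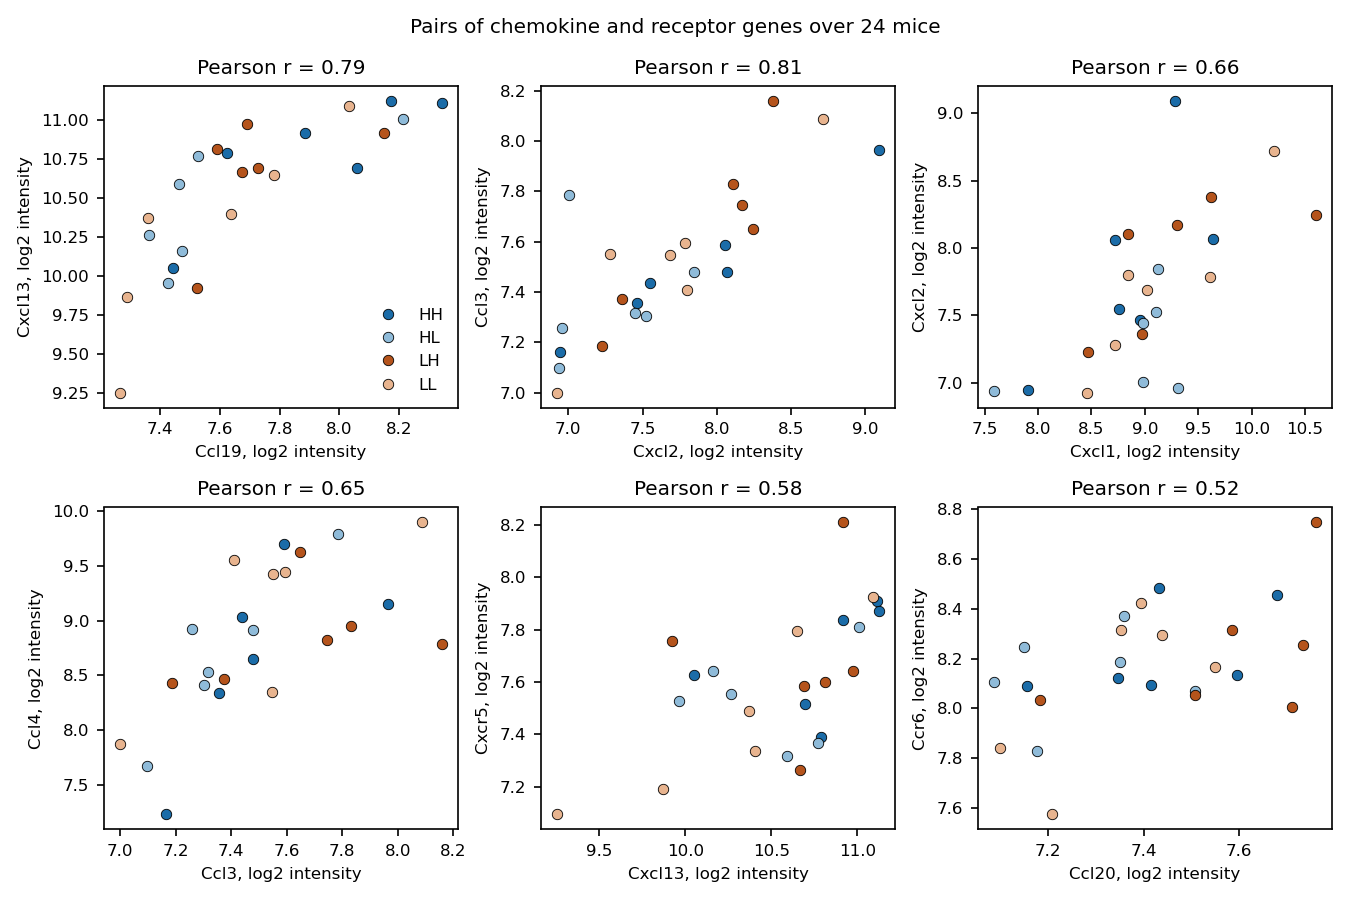
Log2 intensity of 6 pairs of genes, with a point for each of 24 mice coloured by diet group and Pearson's r above each panel. The points of Ccl19 with Cxcl13 (r = 0.79) and Cxcl2 with Ccl3 (r = 0.81) follow a line, and those of the ligand-receptor pairs Cxcl13 with Cxcr5 (r = 0.58) and Ccl20 with Ccr6 (r = 0.52) scatter more widely.

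The sequences just before the transcription start are shown for the genes of the most strongly correlated pairs, for Cxcl1 and for Ccl20, so that genes that varied together can be set side by side. Each is the 250 bases upstream of the start in the RefSeq mouse assembly GRCm38.p6, which is of strain C57BL/6J and not 129/SvEv, written 5′ to 3′ along the gene's strand. They are Cxcl1 (chr5:90890995-90891244, plus strand), Cxcl2 (chr5:90903649-90903898, plus strand), Ccl3 (chr11:83649379-83649628, minus strand), Cxcl13 (chr5:95956689-95956938, plus strand), Ccl19 (chr4:42756366-42756615, minus strand), Ccl20 (chr1:83116516-83116765, plus strand). Capitals mark matches, on either strand, to a kappaB-type motif (GGG, any 2 bases, TTTCC), an interferon response type (GAAA, any 2 bases, GAAA), a STAT type (TTCNNNGAA) or TATAAA.
Cxcl1: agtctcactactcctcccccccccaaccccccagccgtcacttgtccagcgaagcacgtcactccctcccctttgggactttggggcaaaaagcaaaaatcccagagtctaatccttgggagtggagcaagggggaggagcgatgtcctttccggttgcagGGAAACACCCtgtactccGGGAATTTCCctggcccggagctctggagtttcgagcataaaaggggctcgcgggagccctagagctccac
Cxcl2: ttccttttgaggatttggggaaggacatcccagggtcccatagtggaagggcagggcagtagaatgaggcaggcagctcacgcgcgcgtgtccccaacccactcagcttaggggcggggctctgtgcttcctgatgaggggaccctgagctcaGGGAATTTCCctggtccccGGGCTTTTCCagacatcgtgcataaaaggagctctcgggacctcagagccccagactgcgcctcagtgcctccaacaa
Ccl3: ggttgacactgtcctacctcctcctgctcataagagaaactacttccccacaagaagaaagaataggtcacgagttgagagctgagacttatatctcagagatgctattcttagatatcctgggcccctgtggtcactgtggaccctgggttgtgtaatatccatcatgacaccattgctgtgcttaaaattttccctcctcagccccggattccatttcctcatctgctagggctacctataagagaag
Cxcl13: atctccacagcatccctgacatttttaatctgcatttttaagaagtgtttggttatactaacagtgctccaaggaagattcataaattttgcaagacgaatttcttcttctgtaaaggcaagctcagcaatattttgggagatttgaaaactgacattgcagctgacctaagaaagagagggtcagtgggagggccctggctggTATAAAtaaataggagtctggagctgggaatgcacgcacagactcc
Ccl19: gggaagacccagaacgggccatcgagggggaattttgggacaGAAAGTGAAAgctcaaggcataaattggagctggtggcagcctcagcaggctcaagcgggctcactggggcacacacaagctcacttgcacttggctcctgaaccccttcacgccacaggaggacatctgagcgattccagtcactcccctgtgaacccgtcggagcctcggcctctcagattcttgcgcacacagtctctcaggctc
Ccl20: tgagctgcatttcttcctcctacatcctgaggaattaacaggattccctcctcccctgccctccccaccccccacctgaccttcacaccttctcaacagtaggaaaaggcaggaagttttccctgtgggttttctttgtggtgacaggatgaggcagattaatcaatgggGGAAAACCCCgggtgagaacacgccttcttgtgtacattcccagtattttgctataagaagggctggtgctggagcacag

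The kappaB letters were found at bases -97 to -88 and -78 to -69 of Cxcl2 and -80 to -71 of Ccl20, counted from the start, and at -89 to -80 and -71 to -62 of Cxcl1, and no matches overlapped in the windows shown. In all, 6 of 44 windows of members held them (13.6%, from Ccl20, Ccl9, Ccr3, Cxcl1, Cxcl2 and Cxcl3), compared with 1.41% of all 32851 windows of the same length. The interferon response letters were found in 3 of 44 windows (6.82%, from Ccl19, Cxcl10 and Cxcl14) against 2.98% of all, the STAT letters in 4 (9.09%) against 7.02%, and TATAAA in 12 (27.3%) against 12.4%. Windows were given for 40 of the 54 genes, and some genes had several. The direct repeats of vitamin D receptor type, AGGTCA or GGTTCA repeated after any 3 bases, occurred in 0 of 44 windows and in 0.00609% of all windows each. A match to these letters is a description of the sequence and not a binding site, and no match says only that the letters are not in this window. The Ccl3 window held none of these motifs.

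Other genes of chemokine response and leukocyte traffic were read from a list of receptors, signal transducers and adhesion molecules. Of 30 such genes on the array, 28 were tested for the post-weaning diet. Of these, 20 had a difference above 0 and 8 below, against 50.8% of all probes above 0, and the median was 0.04. None passed the adjusted test, and 1 had an unadjusted p under 0.05, the endothelial adhesion molecule Selp (0.19, unadjusted p = 0.0242, adjusted p = 0.944), again against 4.22% of all probes. The atypical receptors (Ackr1, Ackr2, Ackr4 and Ccrl2) had 2 differences above and 2 below 0. For the pre-weaning diet, 17 of 27 were above 0, against 51.8% of all probes, and 1 had an unadjusted p under 0.05, against 2.72% of all probes. This was the receptor kinase Grk6 (0.17, unadjusted p = 0.0428, adjusted p = 0.9995). Platelet factor Pf4 differed by 0.0025 between post-weaning diets.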

How the data were processed

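Total RNA from 24 mice was hybridized to Illumina MouseWG-6 v2 arrays, with 1 array per mouse. The authors deposited raw intensities per probe, not normalized. The detection scores they deposited are a fraction between 0 and 1, and a score above 0.99 was taken as detected, because bright probes carry high scores. The authors also deposited log2 values that were quantile normalized in Genespring. Their methods state a further centring on each probe's median, which the deposited values do not show. Here log2 transformation and quantile normalization were repeated from the raw values in limma 3.58.1 (R 4.3.3), and the largest gap to a deposited value was 0.000415. Quantile normalization gives every array the same distribution, so a shift of most genes would not be seen.

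A probe was tested when it exceeded the 20th percentile in at least 80% of the mice of a group compared, as the study's methods filter. Means of the 4 groups were fitted with lmFit and eBayes, and p-values were adjusted by Benjamini-Hochberg over all probes tested. The differences were HH and LH against HL and LL (post-weaning diet), HH and HL against LH and LL (pre-weaning diet), and their interaction. Unadjusted p-values of single genes came from the same limma fits. Correlations used 100000 permutations (scipy 1.17.1). Named genes were those detected on at least 20 arrays, the 3 with the smallest p in each comparison, the 6 with the largest SD and both genes of each fixed pair. Others named by value, such as Ccr7 ligands or pathway genes, belong to the fixed lists, and Ccl4 and Ccr8 within mother's labels were chosen after their values were seen. The members and lists were chosen with earlier results of these data known. The fits were tested on simulated data.

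Of 45281 probes, 34885 carried a single gene symbol, 18 several and 10378 none. Cxcl5 was not analysed here. Chip positions were not given in the sources used here, so batches could not be examined. No 2 arrays were copies (largest correlation 0.992). Mice were separate animals, but 4 mother's labels were shared by 2 mice each. Deviations of such mice from their group means correlated by 0.40, 0.61, 0.0044 and -0.15. The number of arrays limits the precision. Alternatives were the deposited values, normexp background correction, median scaling, other filters, the mother's label as a block, leaving out mice, the mean of a gene's probes and the methods' t-test.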

Additional observations from a re-analysis of the deposited data

Results flagged for a closer look

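In 31 named genes and 4 groups of 6 mice, 15 values of 124 groups stood apart, in that the gap from the highest or lowest mouse to the next took more of the group's range than Dixon's critical value at 95% allows. Chance alone gives such a value in about 1 of 20 groups.

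Low values came mostly from mice that were low in many members. Ccl8 was 9.83 in HH 10B and 9.40 in HL 10B, Cxcl9 was 9.82 in HH 10B and 10.97 in LL 6, and Cxcl1 was 7.59 in HL 10B. Cxcl13 was 9.92 in LH 3B, where the other LH mice lay between 10.67 and 10.98, and Ccl25 was 7.22 in HL 2A.

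High values were found for Ccl9 in LH 6A (11.98, others 10.66 to 11.00), Ccl17 in LL 3B (8.28), Cx3cr1 in LL 13A (8.33), Ccl28 in HL 2A (10.08, others 8.83 to 9.24) and Ccr3 in HL 2A (7.38). Ccl27a was high in HH 10B (7.76), HL 10 (7.70) and LL 3B (7.93), with all other mice of these groups between 7.17 and 7.38. HL 2A and LL 3B had the lowest shares of probes detected (21.2% and 21.9%), and the part of this in their values was not tested.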

How the results depend on the processing

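No member passed an adjusted p under 0.05 in any of the 4 comparisons under any alternative run, including without each mouse in turn (0 to 0) and with the mother's label as a replicate block (0, with Ccl20 at 0.20 and Cxcr4 at 0.30 for the post-weaning diet). The methods' t-test called 1487 of 31298 probes for the post-weaning diet and 998 of 31308 for the pre-weaning diet before adjustment, and 0 after Benjamini-Hochberg. Without each mouse in turn, the members' median ranged from 0.039 to 0.085 for the post-weaning diet, -0.025 to 0.019 for the pre-weaning diet and 0.011 to 0.085 for the interaction. With median scaling the members' interaction median was 0.23 in place of 0.04, and that of all probes was 0.046 in place of -0.0009. Under the same scaling, Ccl25 turned to 0.021 for the pre-weaning diet. Of the 19 correlations, 7 were called, against 14 with median scaling, 2 without HH 10B, HL 10B and LL 6, and 4 without the 2 mice farthest from the median. With normexp background correction 6 were called, without Cxcl9 with Cxcl10. With 1 mouse per mother's label 6 were called, without Ccl3 with Ccl4. Weak correlations changed sign. With median scaling, r was 0.10 for Ccl2 with Ccr2, -0.26 for Ccl25 with Ccr9, 0.23 for Ccl28 with Ccr10 and -0.15 for Xcl1 with Xcr1. Without the 2 farthest mice it was 0.39 for Ccl2 with Ccr2, 0.12 for Ccl28 with Ccr10 and -0.14 for Xcl1 with Xcr1. With 1 mouse per mother's label it was 0.14, 0.054 and -0.0052 for the same pairs. Ccl28 with Ccr10 was 0.023 with normexp and 0.067 after adjustment for the share of probes detected, an alternative chosen after seeing the data, under which Xcl1 with Xcr1 was -0.023. Cxcl16 with Cxcr6 was -0.26 without HH 10B, HL 10B and LL 6. The cause of these changes was not tested. Ccr1l1 and Ccr3 gave no value with probes detected on at least 6 arrays. Array signal near background limits the genes whose brightest probe was not detected (17 genes, or 16 over all probes).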
